A study of Mus musculus with 11 samples.

Results

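Dendritic epidermal T cells (DETCs), the γδ T cells of mouse epidermis, were compared between mice that lack Langerhans cells (LCs) and wild type mice. The 5 DETC libraries were chosen by the population named in their sample names, out of 11 libraries in the series, and the other 6 held keratinocytes (KCs). The LC-/- mice were huLangerin-DTA animals (labelled DTA), in which the human langerin promoter drives diphtheria toxin subunit A, so that LCs are absent from birth, and the WT mice were their littermates. All mice were female and 8 weeks old, and the cells came from flank epidermis. There were 3 WT libraries (replicates 1, 2 and 3) and 2 LC-/- libraries (replicates 1 and 2), each from a separate animal. DETCs were sorted as live single MHC-II-, CD45+, langerin- and c-kit- cells, a gate without an antibody against a T cell receptor (TCR). The absence of LCs was lifelong, so effects of their early and of their later absence could not be told apart in this model.

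DETCs enter the epidermis as a fetal wave of γδ T cells, and nearly all of them carry one invariant receptor made of the Vγ5 (Tcrg-V5) and Vδ4 (Trdv4) segments. They stay there for life, between keratinocytes, and survive on cytokines such as IL-15 that signal through the IL-2 receptor β chain. Activated DETCs secrete keratinocyte growth factors and IL-13, kill through perforin and granzymes, and can make IL-17. LCs are the antigen-presenting cells of the same layer, and the comparison asks which DETC genes differed when they were missing.

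Depth was similar across the 5 libraries, with 13886040 to 19750440 reads on genes. T cell RNA was present in all of them: Cd3e, an invariant chain of the TCR complex, was between 24602 and 27726 in every library, in the deposited unit of reads divided by a library size factor, here called the normalized count. Keratinocyte RNA was present in all 5 libraries. Krt5, a keratin of basal keratinocytes, was at 17736, 17238 and 20854 in the WT libraries and at 22528 and 18258 in the LC-/- libraries. Krt14, its partner keratin, was at 12894, 10581 and 13751 in WT and at 19763 and 11606 in LC-/- libraries. For both keratins LC-/- replicate 1 was the highest library and replicate 2 lay within the WT range. Summed over 24 keratinocyte markers, WT libraries held 135689, 175577 and 162117 and LC-/- libraries 230651 and 142517. The keratinocyte share of a library, taken as the median over these markers of its value divided by the mean of the KC libraries of the same genotype, came to 15.3%, 15.8% and 18.6% for the WT and to 25% and 16.2% for the LC-/- replicates. None of the 24 markers was called by limma, and 6 were higher at an unadjusted p under 0.05, as were 13.1% of all tested genes. DESeq2 called 3 of the 24 higher and edgeR none, against 6.02% and 2.84% of all tested genes.

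Other cell types left smaller traces. Of 15 LC markers 12 were tested, and their sum was 3567 to 4200 in WT and 3851 to 4081 in LC-/- libraries, a large part of it Epcam, an adhesion gene that the KC libraries held at a higher level. Limma called 4 of them lower, all MHC class II genes, and 1 higher, Epcam. H2-Aa was at 51.3, 63.5 and 81.7 in WT and at 4.85 and 9.95 in LC-/- libraries, and H2-Ab1, H2-Eb1 and Cd74, the invariant chain, fell too. DESeq2 called H2-Eb1 and Cd74 and gave no adjusted p for H2-Aa and H2-Ab1. Without LC-/- replicate 2 these 4 genes stayed called, without WT replicate 3 none did (adjusted p 0.0560 to 0.136, limma), and H2-Ab1 and Cd74 lost their calls without any library but LC-/- replicate 2. Epcam rose by 0.72 on the log2 scale, with 78.1% of its WT and 92.5% of its LC-/- level matching the keratinocyte share of the KC value. Quantile normalization ended the calls of Epcam (adjusted p = 0.0745) and H2-Ab1 (0.0601). Cd207, which encodes langerin, was at 21.8, 16.5 and 46.7 in WT and at 0 and 4.42 in LC-/- libraries (adjusted p = 0.0520, limma). The gate took MHC-II- and langerin- cells, and the source of these transcripts was not tested. The 7 αβ T cell markers summed to 9798 to 11751 in WT, but to 7563 in LC-/- replicate 1 and 13946 in replicate 2, the lowest and the highest library. Cd8a, the CD8 α chain, followed them with 378 and 2825 in LC-/- replicates 1 and 2 against 786 to 2092 in WT. None of the 7 was called by limma, 0 passed an unadjusted p of 0.05, and DESeq2 and edgeR called none. Of 10 mast cell markers 7 were at 0 in every library. Macrophage and neutrophil markers summed to 1953 to 2090 in WT and 1583 to 1725 in LC-/- libraries, B cell markers to 2820 to 2881 and 2202 to 2500, NK and innate lymphoid markers to 9105 to 11712 and 10471 to 10545, melanocyte markers to 148 to 193 and 121 to 158, and fibroblast and endothelial markers to 61.1 to 84.2 and 30.1 to 89.6.

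**Figure D1:**
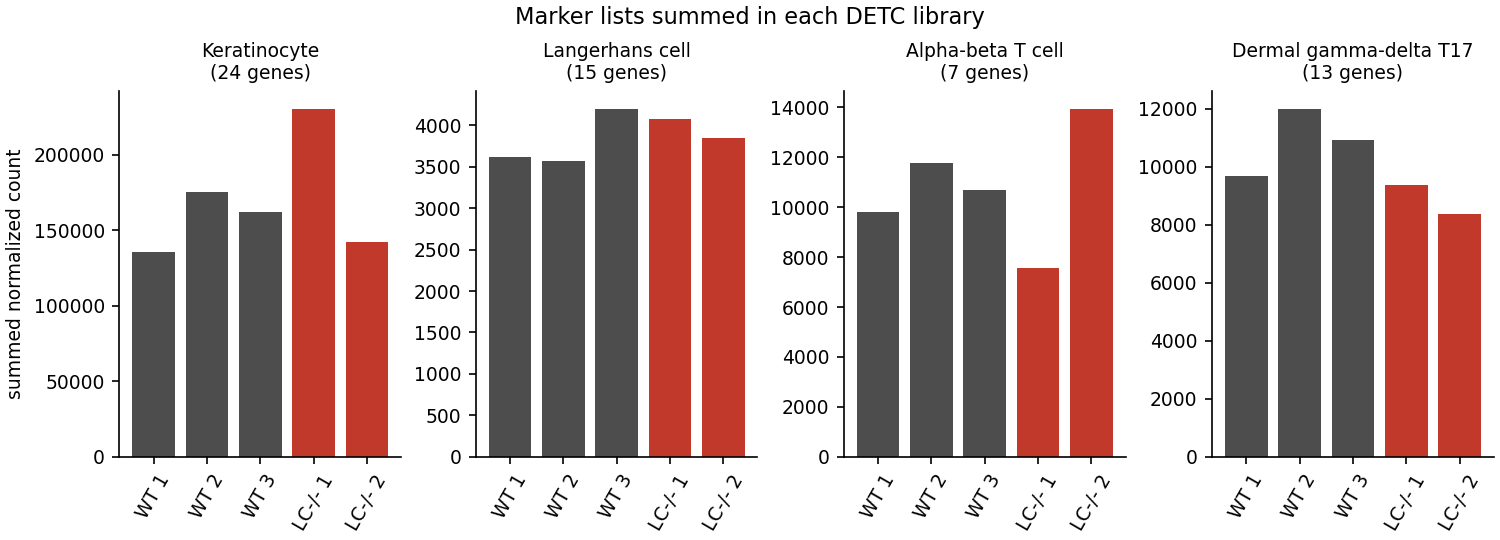
Each bar is the normalized count of 1 DETC library summed over a marker list, with WT libraries in grey and LC-/- libraries in red. Keratinocyte markers were highest in LC-/- replicate 1 (230651), αβ T cell markers were lowest there (7563) and highest in LC-/- replicate 2 (13946), and dermal γδ T17 markers were lower in both LC-/- libraries (9359 and 8374) than in the 3 WT libraries (9671 to 12003).

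Of 14419 genes tested in DETCs, 452 were upregulated (3.13%) and 62 were downregulated (0.43%) in LC-/- mice (limma on log2 of the normalized count plus 1, Benjamini-Hochberg adjusted p under 0.05). The upregulated genes had high counts. Their median normalized count, not corrected for gene length, was 2601, against 252 for all tested genes and 405 for downregulated genes. In the bin of genes with the highest counts, of 10 equal bins, 16.2% were called higher and 0.277% lower, and in the lowest bin 0% and 0.0693%. The median log2 fold change of the top bin was 0.18 against 0.02 over all genes. When the libraries were first given the same distribution of values (quantile normalization), 178 genes were called higher (1.23%) and 85 lower (0.589%), the higher share of calls went from 87.9% to 67.7%, and the top bin had 4.85% higher, 2.36% lower and a median of -0.04. Calls in the T cell lists that were lost under that scaling are given below with its adjusted p. Below, called, rose and fell refer to limma unless another tool is named. Of all tested genes DESeq2 called 6.02% higher and 1.46% lower, and edgeR 2.84% and 0.506%. These shares are the background for the counts by DESeq2 and edgeR in the lists below.

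**Figure D2:**
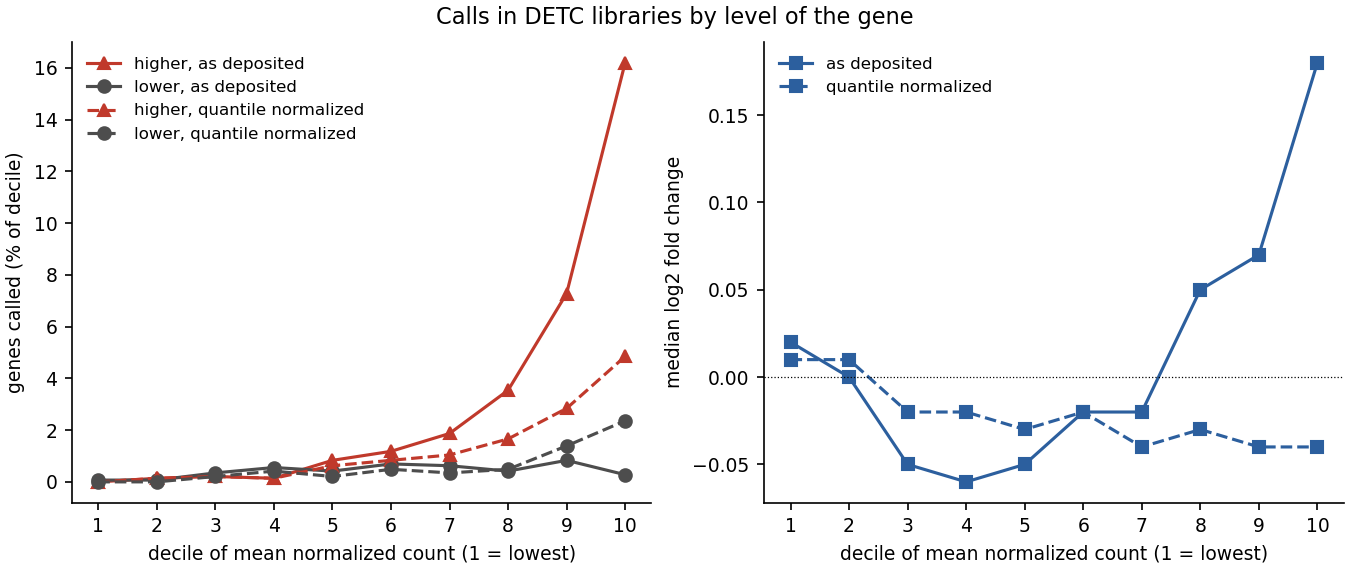
Tested genes were split into 10 bins by mean normalized count over the 5 DETC libraries. The left panel plots the percent of each bin called higher or lower in LC-/- DETCs and the right panel the median log2 fold change, for the deposited scaling (solid) and after quantile normalization (dashed). The percent called higher climbed to 16.2% in the top bin with the deposited scaling and to 4.85% after quantile normalization.

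Single libraries moved these counts. They became 342 higher and 28 lower without WT replicate 1, 63 and 10 without WT replicate 2, 42 and 0 without WT replicate 3, 29 and 6 without LC-/- replicate 1, and 478 and 112 without LC-/- replicate 2. Beside that 0, limma gave 520 genes an unadjusted p under 0.05 with a lower value, where all 5 libraries gave 6.19% of tested genes, and DESeq2 and edgeR were run on all 5 libraries only. The lists of T cell genes held 269 genes in all, of which 254 were tested. Of these 16 rose (6.3%, against 3.13% of all tested genes) and 12 fell (4.72%, against 0.43%), with a median log2 fold change of -0.05. These shares are a description, since the lists were drawn up with results known. In all 28 the genotypes did not overlap. Both LC-/- libraries lay above all WT libraries for 21.3% of tested genes and below them for 16.5%. The 28 were picked by a test on these same values, so their separation adds no support.

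**Figure D3:**
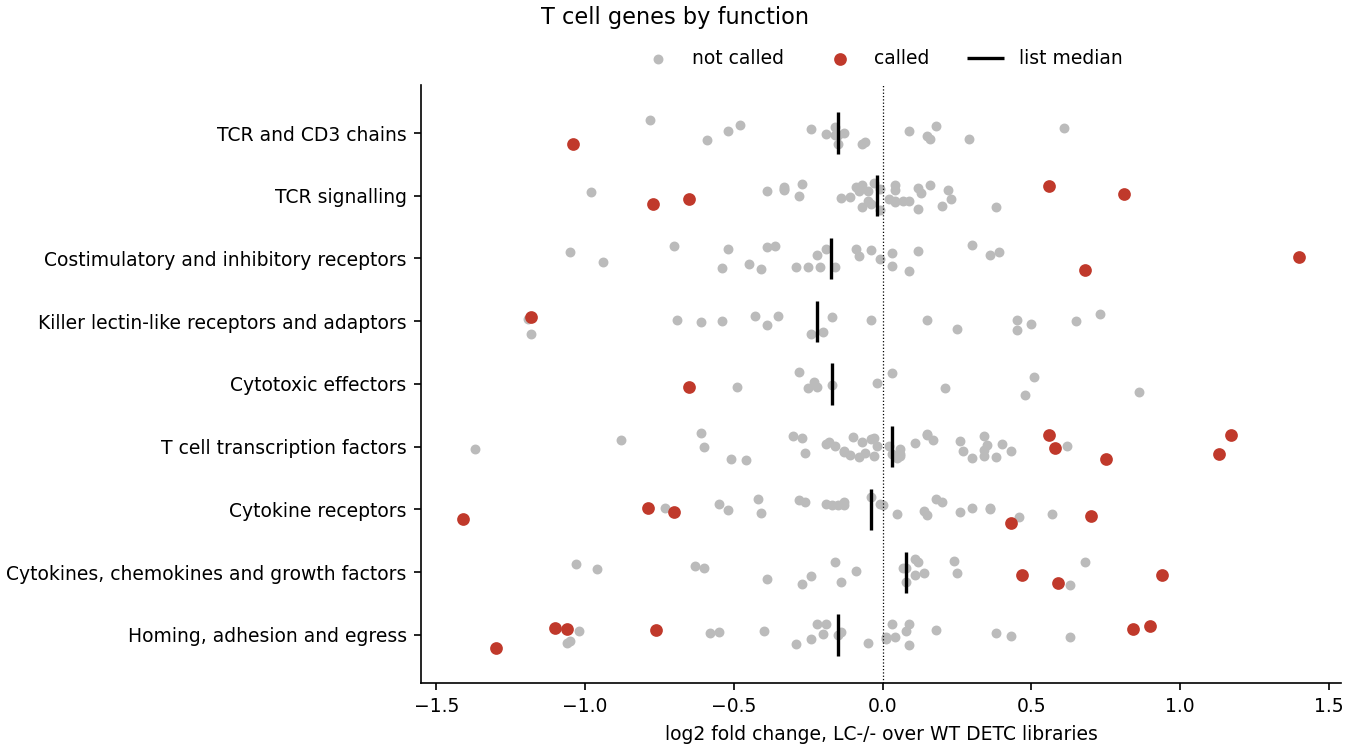
Each point is a tested gene of one T cell list, placed by its log2 fold change of LC-/- over WT DETC libraries, red where called by limma, with the list's median as a black bar. List medians lay between -0.22 (killer lectin-like receptors) and 0.08 (cytokines), and called genes stood on both sides of 0 in the lists of signalling genes, cytokine receptors and homing genes.

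The variable segments of the DETC receptor are shown first, because their reads report which receptor the sorted cells carried. The last 300 bases of each coding sequence (GENCODE M21, GRCm38, 5′ to 3′ on the plus strand) are given. Capitals mark the last tyrosine-tyrosine-cysteine codons, behind which the joined CDR3 begins. Trdv4 spans 2 coding exons at chr14:54075004-54075515 and Tcrg-V5 2 coding exons at chr13:19192278-19192725.
Trdv4: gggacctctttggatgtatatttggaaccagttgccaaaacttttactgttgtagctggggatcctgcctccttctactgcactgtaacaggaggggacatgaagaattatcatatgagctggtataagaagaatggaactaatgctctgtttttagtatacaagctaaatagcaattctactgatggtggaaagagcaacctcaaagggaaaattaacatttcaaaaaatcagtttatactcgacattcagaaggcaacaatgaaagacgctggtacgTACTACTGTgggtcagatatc
Tcrg-V5: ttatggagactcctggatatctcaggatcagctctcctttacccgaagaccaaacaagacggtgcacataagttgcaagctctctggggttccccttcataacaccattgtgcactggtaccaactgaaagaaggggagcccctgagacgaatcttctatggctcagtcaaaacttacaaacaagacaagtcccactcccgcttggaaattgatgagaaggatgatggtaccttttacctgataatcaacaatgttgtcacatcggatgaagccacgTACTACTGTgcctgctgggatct

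Trdv4, the δ chain segment, was at 11432, 7750 and 10270 in WT and at 5387 and 4115 in LC-/- libraries. Both LC-/- libraries were below all WT libraries, and the gene fell with a log2 fold change of -1.04 ± 0.18 (SE, adjusted p = 0.0279, limma). Tcrg-V5, the γ chain segment, was at 5387, 3650 and 4461 against 3191 and 2738. It was also lower in both LC-/- libraries but was not called, with a log2 fold change of -0.59 ± 0.16 (SE, adjusted p = 0.0910, limma). The constant segments had smaller differences, with 39123, 30304 and 38560 against 26887 and 23250 for Trdc (log2 fold change -0.52, adjusted p = 0.120, limma) and a log2 fold change of -0.48 for Tcrg-C1 (adjusted p = 0.109, limma). Smaller differences were seen in the invariant signalling chains. Cd3e was at 25689, 27726 and 25286 in WT and at 24602 and 25402 in LC-/- libraries, with overlapping genotypes and a log2 fold change of -0.07 ± 0.11 (SE, adjusted p = 0.797, limma). Cd3g, Cd3d, Cd247 (the ζ chain) and Fcer1g, a related adaptor, had log2 fold changes of -0.19, -0.15, -0.06 and -0.16, and none was called with the deposited scaling, but under quantile normalization Cd3g fell by 0.46 on the log2 scale and was called (adjusted p = 0.0445).

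Within each WT library, Trdv4 amounted to 44.5%, 28.0% and 40.6% of Cd3e, and within the LC-/- libraries to 21.9% and 16.2%. Against Trdc it was 29.2%, 25.6% and 26.6% for WT replicates 1 to 3, and 20% and 17.7% for the LC-/- replicates. For both ratios of Trdv4 the LC-/- libraries lay below all WT libraries, and ratios within a library do not depend on its scaling. Trdv4 was called on these same values, so their separation is not independent support. Trdc amounted to 152%, 109% and 152% of Cd3e in WT and to 109% and 91.5% in LC-/- libraries. Per kilobase of exon, the mean level of Trdv4 was 22111 in WT and 10700 in LC-/- DETCs, that of Tcrg-V5 13195 and 8694, and that of Cd3e 6430 and 6128. Of the 20 receptor chain genes, 1 was lower (5%, against 0.43% of all tested genes), none was higher and 19 were not called by limma, while DESeq2 called 4 lower, Tcrg-V5 (adjusted p = 0.00623) and Trdc (0.00303) among them, and 14 had a log2 fold change below 0 (median -0.15). Trdv4 kept its call without WT replicate 2 (adjusted p = 0.0442) and lost it without any other library (0.0612 to 0.0918). Its call was also lost with the keratinocyte level as a covariate (adjusted p = 0.0530) and in a fit over all 11 libraries (0.464). In a sorted bulk sample, fewer cells with this receptor and less of its RNA per cell cannot be told apart, and the αβ T cell markers that differed between the LC-/- libraries were not tested as a part of it.

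**Figure D4:**
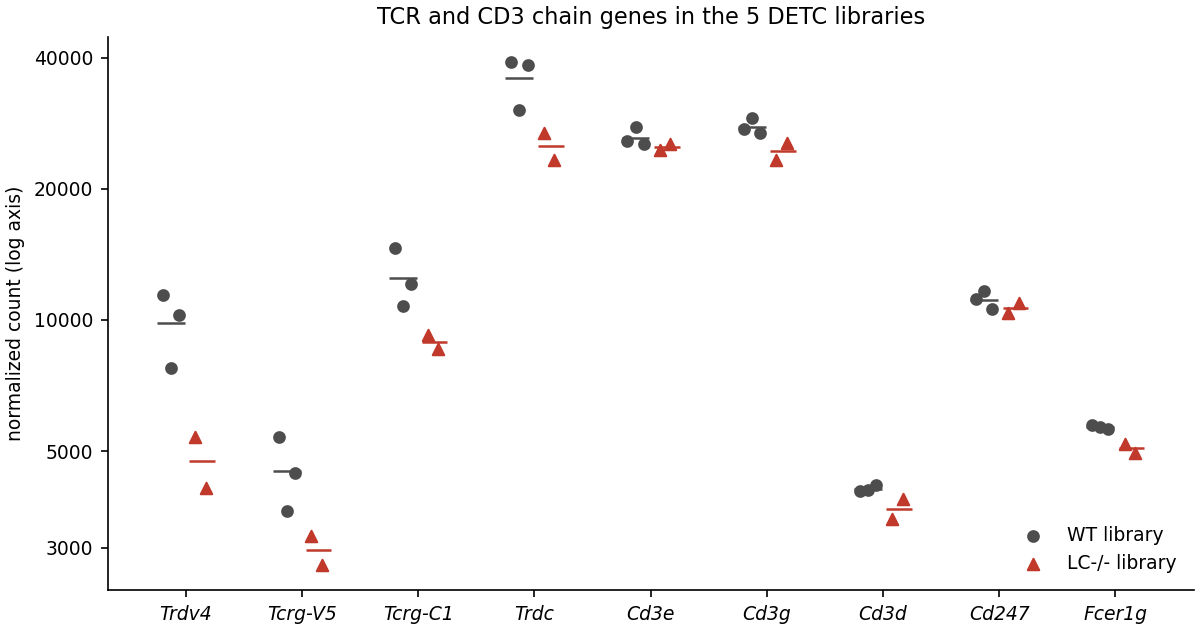
Normalized counts (log axis) of TCR and CD3 chain genes in each DETC library, with grey circles for 3 WT libraries, red triangles for 2 LC-/- libraries and short lines for group means. The 2 LC-/- points of Trdv4 (5387 and 4115) lie below the lowest WT point (7750), while the points of Cd3e overlap.

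Among the variable segments, 1 was called higher. Trav16, an α chain segment, was at 195, 279 and 175 in WT and at 711 and 676 in LC-/- libraries. It rose with a log2 fold change of 1.70 ± 0.19 (SE, adjusted p = 0.0105, limma), and stayed called without each library in turn (adjusted p at most 0.0486). Trav13-4-dv7, a neighbouring segment usable in α and δ chains, was at 105, 196 and 288 against 544 and 379, apart but not called (adjusted p = 0.105, limma). DESeq2 called Trav13-4-dv7 higher (adjusted p = 0.009). Of 39 variable segments tested, 1 was called higher and 1 lower (median log2 fold change 0.11), against 3.13% and 0.43% of all tested genes. The identity of Trav16 needs care because nearly identical copies lie upstream. Trav16 (2 coding exons, chr14:53743174-53743705) and Trav16n (chr14:53351090-53351621) are printed from shortly before their first to shortly after their last difference, with capitals at the bases that differ or have no partner.
Trav16: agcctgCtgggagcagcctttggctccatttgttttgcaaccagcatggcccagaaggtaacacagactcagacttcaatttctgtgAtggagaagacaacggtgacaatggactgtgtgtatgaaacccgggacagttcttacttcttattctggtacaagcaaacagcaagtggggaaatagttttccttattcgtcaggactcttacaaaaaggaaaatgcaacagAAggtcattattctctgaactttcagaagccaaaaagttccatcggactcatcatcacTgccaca
Trav16n: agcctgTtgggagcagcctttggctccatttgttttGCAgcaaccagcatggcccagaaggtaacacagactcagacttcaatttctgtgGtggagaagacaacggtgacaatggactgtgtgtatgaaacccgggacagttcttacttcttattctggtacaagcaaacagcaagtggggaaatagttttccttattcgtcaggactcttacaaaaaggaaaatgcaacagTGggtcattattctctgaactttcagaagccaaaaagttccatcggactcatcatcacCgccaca

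The aligned 350 bases of these segments were 98.6% identical, with 5 differences, 3 bases present in Trav16n alone and a longest shared run of 141 bases, longer than 1 read. Reads could thus have been split or dropped between the copies, and the level of Trav16 is uncertain. Trav16n itself was at 7.64, 50.3 and 9.72 in WT and at 3.88 and 46.4 in LC-/- libraries (log2 fold change -0.14, adjusted p = 0.962, limma). A further copy, Trav16d-dv11, 97.4% identical to Trav16, was at 0.972 to 14.9 in WT and at 16.5 and 2.21 in LC-/- libraries. Neither copy showed the split between genotypes that Trav16 did.

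Among 38 TCR signalling genes 2 rose (5.26%, against 3.13% of all tested genes), 2 fell (5.26%, against 0.43%) and 34 were not called (median log2 fold change -0.02), and DESeq2 called 3 higher and 3 lower. Ptpn6 encodes SHP-1, a phosphatase that restrains TCR signals. It was at 5477, 4710 and 4845 in WT and at 2995 and 2855 in LC-/- libraries, and fell with a log2 fold change of -0.77 ± 0.10 (SE, adjusted p = 0.0136, limma). Ptprcap, a partner of the phosphatase CD45, fell by 0.65 on the log2 scale, from 1721 to 1925 in WT to 1020 and 1342. Grap2 encodes the adaptor Gads, which links the TCR scaffold LAT to SLP-76. It was at 7534, 9066 and 8197 in WT and at 12412 and 11858 in LC-/- libraries, a rise of 0.56 in log2 units (adjusted p = 0.0349, limma). Rcan1, an inhibitor of calcineurin, rose by 0.81, but 72.6% of its WT level and 77.0% of its LC-/- level matched what the keratinocyte share of the KC value would supply. Ptprc (CD45) had a log2 fold change of -0.05 with overlapping genotypes. Blk, a kinase of the Src family, had -0.98 and was not called by limma (adjusted p = 0.0693), though it was by DESeq2 (0.00309). Quantile normalization ended the calls of Grap2 (adjusted p = 0.105) and Rcan1 (0.0658). Of the 4 calls, those of Grap2 and Ptprcap were kept only without WT replicate 1 and only without LC-/- replicate 2 respectively, as was that of Rcan1 without LC-/- replicate 2, and Ptpn6 lost its call without WT replicate 3 (adjusted p = 0.0626) or LC-/- replicate 1 (0.0685).

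Havcr2 stood out among 28 costimulatory and inhibitory receptors. It encodes TIM-3, an inhibitory receptor of activated lymphocytes (chr11:46454935-46481255, plus strand). The WT libraries held 2467, 3284 and 3324 normalized counts of it and the LC-/- libraries 8099 and 7741, with both LC-/- libraries far above the highest WT library. The log2 fold change was 1.40 ± 0.14 (SE, adjusted p = 0.00832, limma). KC libraries held 0.0203% of its DETC level. The call was kept without each library in turn (adjusted p 0.0117 to 0.0422), under quantile normalization (0.0118), with the keratinocyte covariate (0.0143), by DESeq2 (5.57e-18) and by edgeR (0.00692). It was lost in the fit over all 11 libraries (adjusted p = 0.108, limma). The call was also lost after subtracting the keratinocyte share over all genes (0.0964) and without a trend in the variance (0.179). The subtraction and the fit without a trend left no gene called. Under each of these settings the log2 fold change of Havcr2 stayed at 1.40, which the settings could hardly have changed. The fit over all 11 libraries and the fit without a trend alter the variance only. The subtraction takes almost nothing from a gene at 0.0203% of its DETC level in KC libraries. Tnfrsf1b, the TNF receptor 2, rose by 0.68 in log2 units, from 27411, 33118 and 33500 to 49551 and 50523 (adjusted p = 0.0439, limma). That call was lost under quantile normalization (adjusted p = 0.0739) and kept only without WT replicate 1 among the fits that left out a library. Lag3, a receptor for MHC class II, was at 1535, 875 and 1237 in WT and at 462 and 710 in LC-/- libraries (log2 fold change -1.05, adjusted p = 0.0654, limma). DESeq2 called Lag3 lower. Of the 28 genes 2 were called higher (7.14%, against 3.13%) and 26 were not called (DESeq2, 3 higher and 4 lower), 19 had a log2 fold change below 0, and the list median was -0.18.

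Klrb1c and Prf1 were the genes called among receptors and effectors of killing. Klrb1c (NK1.1), a killer lectin-like receptor, was at 324, 171 and 241 in WT and at 100 and 108 in LC-/- libraries. It fell with a log2 fold change of -1.18 ± 0.25 (SE, adjusted p = 0.0488, limma) and kept its call only without WT replicate 2 (0.0493) among the fits that left out a library. Quantile normalization (adjusted p = 0.0689) and edgeR (0.0542) did not call it. Its neighbour Klrb1a was at 268, 121 and 206 against 85.4 and 78.5 and was not called by limma (adjusted p = 0.0797), though it was by DESeq2 (0.00357). Klrb1 genes share sequence, so reads may have been divided between them. Members with high counts had log2 fold changes of -0.17 (Klrb1b) and 0.25 (Klrk1, or NKG2D), the receptor by which DETCs recognise stressed keratinocytes, and neither was called. In the list of 23 receptors and adaptors 20 were tested, and 1 was lower (5%, against 0.43% of all tested genes), none higher and 19 not called (median -0.22), while DESeq2 called 4 lower. Prf1, the pore-forming protein perforin, was at 5876, 6104 and 5743 in WT and at 4056 and 3480 in LC-/- libraries. It fell with a log2 fold change of -0.65 ± 0.10 (SE, adjusted p = 0.0189, limma), with both LC-/- libraries far below a narrow WT range, but only without WT replicate 1 did the call survive the loss of a library (0.0354, otherwise 0.0510 to 0.0761). The other 12 tested genes of the 19 cytotoxic effectors, among them the granule genes Srgn and Ctsw at log2 fold changes of 0.21 and -0.17, were not called, so that 7.69% of 13 were lower. DESeq2 called 1 of the 13 higher and 2 lower.

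Nr4a3 and Foxo1 had the largest rises in the list of T cell transcription factors. Of 49 tested, 5 rose (10.2%, against 3.13% of all tested genes), none fell and 44 were not called by limma (median 0.03). DESeq2 called 8 higher and 1 lower, edgeR 6 higher, and limma after quantile normalization 4 higher and 1 lower. Nr4a3 (NOR1), an orphan nuclear receptor that is switched on by TCR signals, was at 47829, 60083 and 62018 in WT and at 113575 and 140919 in LC-/- libraries. The log2 fold change was 1.17 ± 0.19 (SE, adjusted p = 0.0240, limma). Its relative Nr4a2 (NURR1) was at 35279, 35937 and 38391 against 51812 and 61122 and just missed the threshold (log2 fold change 0.62, adjusted p = 0.0537, limma). DESeq2 (adjusted p = 6.37e-06) and edgeR (0.0345) called Nr4a2 higher, and limma after quantile normalization did not (0.152). Foxo1, a factor that promotes quiescence and homing receptors in T cells, was at 4971, 5668 and 5766 in WT and at 13465 and 10616 in LC-/- libraries. It rose with a log2 fold change of 1.13 ± 0.13 (SE, adjusted p = 0.0105, limma) and stayed called without each library in turn (adjusted p at most 0.0479). In the KC libraries its log2 fold change was -0.05. Both LC-/- values of Nr4a3 and Foxo1 lay above all WT values, and quantile normalization kept both calls (adjusted p = 0.0227 and 0.0142). With the keratinocyte level as a covariate Foxo1 kept its call (adjusted p = 0.0143, limma) and Nr4a3 lost its call (0.0708).

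Stat3, which relays IL-6 and IL-23 signals, was at 6076, 6418 and 7120 in WT and at 11524 and 10439 in LC-/- libraries, a rise of 0.75 in log2 units (adjusted p = 0.0168, limma). Keratinocyte RNA would supply 22.7% of its WT level and 21.9% of its LC-/- level, and Stat3 also rose in the KC libraries (log2 fold change 0.39, adjusted p = 0.0228, limma). Egr3, an early gene of TCR signalling, was at 1760 to 1811 in WT and at 2662 and 2664 in LC-/- libraries (log2 fold change 0.58, adjusted p = 0.0155, limma), with a keratinocyte part of 50.2% and 52.0%. Hif1a, the oxygen-sensing factor, rose by 0.56 with a keratinocyte part of 38.1% and 41.5%, and its call was lost under quantile normalization (adjusted p = 0.111). After the keratinocyte share was subtracted, the log2 fold changes were 0.76 (Stat3), 0.49 (Egr3) and 0.47 (Hif1a), with no gene called. With the keratinocyte level as a covariate, Stat3 (adjusted p = 0.0424, limma) and Egr3 (0.0408) kept their calls and Hif1a lost its call (0.0944). The part of keratinocyte RNA in these rises was not tested beyond these fits. Left-out libraries kept the calls of Nr4a3 without WT replicate 1 (adjusted p = 0.0261, otherwise 0.0760 to 0.107), of Stat3 and Egr3 without WT replicate 1 or LC-/- replicate 2, and of Hif1a without LC-/- replicate 2 (0.0459).

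Il7r, Il17rb and Il27ra fell among the cytokine receptors, and Il4ra and Il12rb2 rose. Of 31 such genes tested 2 rose (6.45%, against 3.13% of all tested genes), 3 fell (9.68%, against 0.43%) and 26 were not called (median -0.04), and DESeq2 called 5 higher and 4 lower. Il7r, the IL-7 receptor α chain, was at 1654, 1671 and 1866 in WT and at 1176 and 965 in LC-/- libraries, with a log2 fold change of -0.70 ± 0.11 (SE, adjusted p = 0.0230, limma). Il17rb, a receptor chain for IL-25, was at 163, 115 and 194 against 67.0 and 48.6 and fell by 1.41 on the log2 scale (adjusted p = 0.0333, limma), with a keratinocyte part of 10.4% in WT and 33.4% in LC-/- libraries. Il27ra, the IL-27 receptor, fell from 835, 791 and 852 to 399 and 572 (log2 fold change -0.79, adjusted p = 0.0343, limma, and 0.0503 under quantile normalization). Il4ra, the shared chain for IL-4 and IL-13, was at 5921, 6619 and 7160 in WT and at 11364 and 9991 in LC-/- libraries and rose by 0.70 in log2 units (adjusted p = 0.0235, limma). Il12rb2, a chain of the IL-12 receptor, rose by 0.43, from 7002 to 7300 in WT to 9548 and 9723, and lost its call under quantile normalization (adjusted p = 0.266). Il2rb, which carries the IL-15 signal, was at 33889, 38512 and 43101 against 54403 and 50709 and was not called (log2 fold change 0.46, adjusted p = 0.150, limma). DESeq2 called Il2rb higher (adjusted p = 0.00807). Tgfbr2, a TGF-β receptor, had 0.36 and was not called by limma (adjusted p = 0.112), though it was by DESeq2 (0.0270). Il7r lost its call without WT replicate 2 (adjusted p = 0.0742) or 3 (0.0845). Without 1 library, Il17rb was never called, Il27ra only without LC-/- replicate 2, Il12rb2 only without WT replicate 1, and Il4ra only without WT replicate 1 or LC-/- replicate 2.

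Growth factors that act on epithelium were among the cytokine genes that rose. Of 24 tested, 3 rose (12.5%, against 3.13% of all tested genes), none fell and 21 were not called by limma (median 0.08), while DESeq2 called 4 higher and 3 lower. Areg, an EGF receptor ligand, was at 18796, 20232 and 20201 in WT and at 29731 and 29740 in LC-/- libraries. The log2 fold change was 0.59 ± 0.11 (SE, adjusted p = 0.0323, limma), and quantile normalization ended the call (0.0605). Tnfsf11 (RANKL), a TNF family ligand, rose from 1529, 1465 and 1430 to 1955 and 2123 (log2 fold change 0.47, adjusted p = 0.0324, limma, and 0.0883 under quantile normalization). Tgfb3, a TGF-β ligand, rose from 158, 255 and 232 to 406 and 407 (log2 fold change 0.94, adjusted p = 0.0489, limma, and 0.0657 under quantile normalization), while Tgfb1 had 0.24 and was not called. Each of the 3 calls was kept, among the fits that left out a library, only without WT replicate 1 (adjusted p 0.0265 to 0.0416).

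Homing and adhesion genes changed in both directions: of 31 tested, 2 rose (6.45%, against 3.13% of all tested genes), 4 fell (12.9%, against 0.43%) and 25 were not called (median -0.15), and DESeq2 called 3 higher and 5 lower. Ccr6, the receptor for CCL20, was at 383, 396 and 602 in WT and at 223 and 149 in LC-/- libraries, and fell with a log2 fold change of -1.30 ± 0.24 (SE, adjusted p = 0.0327, limma). Ccr4, a receptor of skin-homing T cells, was at 553, 507 and 443 against 265 and 217 (log2 fold change -1.06 ± 0.14 SE, adjusted p = 0.0161, limma). Itga4, the α4 integrin, was at 316, 220 and 343 against 126 and 142 (log2 fold change -1.10, adjusted p = 0.0327, limma), and Itgb3, the β3 integrin, fell by 0.76 on the log2 scale. Cxcr4, the receptor for CXCL12, was at 1835, 2152 and 2751 against 817 and 1409 and was not called (log2 fold change -1.05, adjusted p = 0.0580, limma). DESeq2 called Cxcr4 lower (adjusted p = 0.00043). Ccr7, the lymph node homing receptor, was at 332, 425 and 476 in WT and at 683 and 838 in LC-/- libraries (log2 fold change 0.90 ± 0.17 SE, adjusted p = 0.0333, limma). Itga2, the α2 integrin, rose by 0.84, but keratinocyte RNA would supply 69.3% of its WT and 77.1% of its LC-/- level. Itgae (CD103), the integrin chain that binds keratinocyte E-cadherin, was at 20638 to 25673 in WT and at 22108 and 26245 in LC-/- libraries (log2 fold change 0.03), and Itgal and Cd44 had 0.01 and 0.03, all with overlapping genotypes. Ccr6, Ccr7 and Itgb3 lost their calls without any 1 library. Ccr4 lost its call without WT replicate 2 (adjusted p = 0.0628) or 3 (0.0534), Itga4 without WT replicate 1 or 3 or LC-/- replicate 1 (0.0912 to 0.129), and Itga2 without any library but LC-/- replicate 2. Quantile normalization ended the call of Ccr7 (0.0561).

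**Figure D5:**
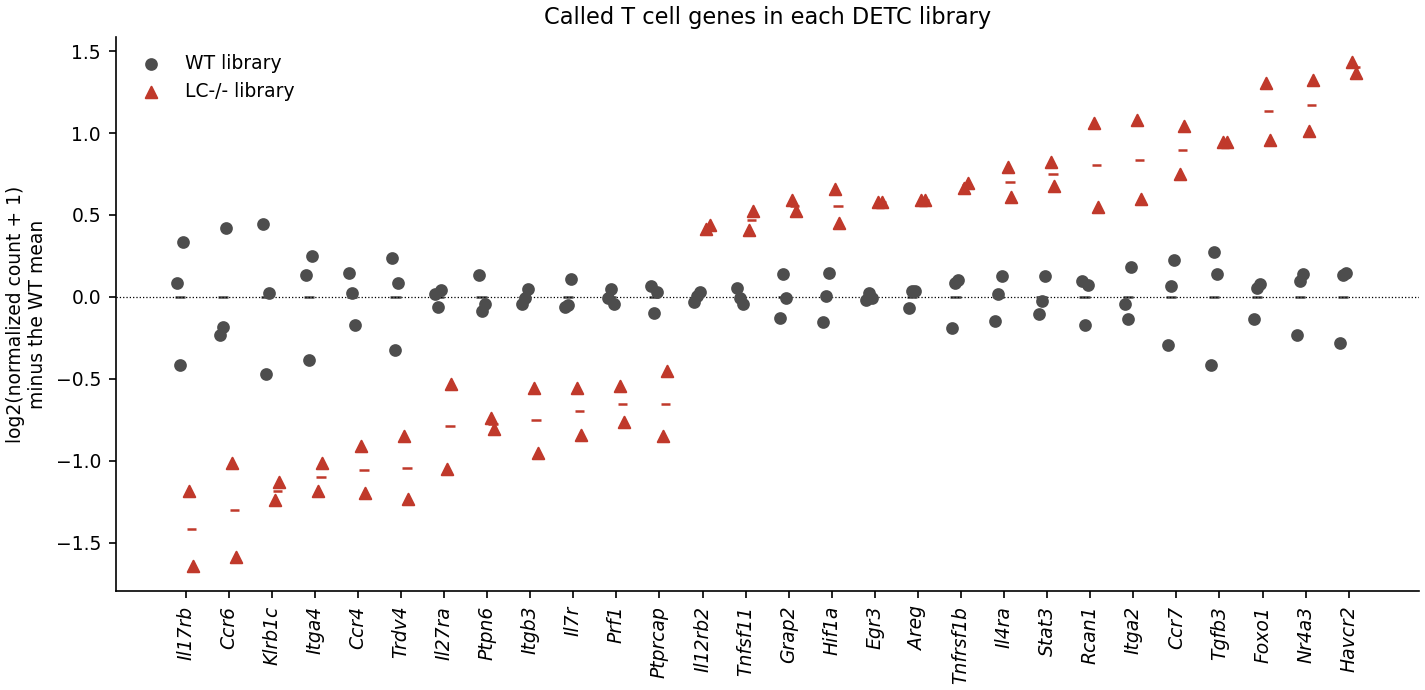
The 28 called genes of the T cell lists, ordered by log2 fold change, with 1 point per DETC library: log2(normalized count + 1) minus the mean of the 3 WT libraries. Grey circles are WT libraries, red triangles LC-/- libraries and short lines group means, and in every gene both red points lie on one side of all grey points.

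Ccr6 and 5830411N06Rik, genes of IL-17-producing γδ T cells, fell, and the cytokine genes themselves were lower without passing limma's test, though they passed that of DESeq2. Il17a was at 271, 501 and 453 in WT and at 205 and 199 in LC-/- libraries, with a log2 fold change of -0.96 that was not called (SE 0.25, adjusted p = 0.0771, limma). Il17f was at 347, 764 and 534 against 277 and 233 (log2 fold change -1.03, adjusted p = 0.0979, limma). Sox13, a factor of the same lineage, was at 79.7, 141 and 105 against 56.3 and 57.5 (log2 fold change -0.88, adjusted p = 0.115, limma). In all 3 both LC-/- libraries lay below the lowest WT library, as they did for 16.5% of all tested genes. DESeq2 called Il17a (adjusted p = 0.00170), Il17f (0.00231) and Sox13 (0.0432), as limma did Il17a and Il17f without WT replicate 1. The list of 13 dermal γδ T17 markers, to which Ccr6 belongs, had 2 lower calls (15.4%) (0.43% of all tested genes were), none higher, 10 members below 0 and a median log2 fold change of -0.78. The other lower call was 5830411N06Rik (Scart2), a scavenger receptor family gene of γδ T17 cells, at 1433, 2280 and 1532 in WT and 873 and 849 in LC-/- libraries (log2 fold change -0.99, adjusted p = 0.0333, limma). Not every member moved. Cd163l1 (Scart1) had a log2 fold change of 0.01, Maf 0.17 and Tcrg-V4, the segment of one dermal γδ T17 subset, 0.18 with 357, 578 and 389 against 505 and 475. Tcrg-V6, the segment of the other subset, was at 147, 179 and 157 against 69.9 and 124 and was not called (adjusted p = 0.143, limma). The gate did not separate dermal γδ T cells from DETCs, and the part of such cells in the lower values was not tested. Without 1 library, 5830411N06Rik kept its call only without WT replicate 1 (adjusted p = 0.0427) or 2 (0.0445). DESeq2 called 6 of the 13 lower and edgeR 2, against 1.46% and 0.506% of all tested genes, and both called none higher.

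The letters bound by FOXO1 and by NR4A factors were searched in promoter windows (RefSeq, GRCm38.p6), because Foxo1 and Nr4a3 rose. Among T cell side genes (those with a KC level under 10% of the DETC level), 22 of the 28 called lower had promoter windows, each from 250 bases before to 50 after a start. Of the 77 T cell side genes called higher, 57 had promoter windows, and their 70 windows were searched. The FOXO1 motif GTAAACA occurred in windows of Grap2 and Jmy among genes called higher (2.86%) and of Adam19 among genes called lower (2.94%), against 2.6% of windows of all tested genes, 3.11% of windows of tested T cell side genes and 3.65% of all 32851 windows. The NR4A motif AAAGGTCA occurred in no window of either group in 0.959% of windows of tested genes, in 1.28% of those of tested T cell side genes and in 1.51% of all windows. Both motifs were searched on both strands and cannot match at the same place, and a match is a description of letters and not of binding.

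Beyond the lists, called genes were sorted by how much of them KC libraries held. In 1470 tested genes the KC mean was under 10% of the DETC mean, here called the T cell side. Of these 77 rose (5.24%) and 28 fell (1.9%). In 6092 genes with a KC mean of 10% to under 100% of the DETC mean, 272 rose (4.46%) and 27 fell (0.443%), and in 6857 genes with a KC mean at or above the DETC mean, 103 rose (1.5%) and 7 fell (0.102%). T cell side genes thus made up 17% of upregulated and 45.2% of downregulated genes. Fitted alone, the 1470 genes gave 75 higher and 24 lower calls, and the same counts after the keratinocyte share of each library had been subtracted. The definition of the class leaves little to subtract, so the equal counts say nothing of keratinocyte RNA. The subtraction over all 14419 genes left 0 calls in either direction (in limma, 1167 rises and 1163 falls had an unadjusted p under 0.05). Values that came out below 0 were set to 0. The log2 fold change of Krt5 went from 0.13 to 4.38 and that of Krt14 from 0.30 to -1.29. Both of these fits on the class were chosen after seeing the data. With quantile normalization 35 T cell side genes were higher and 39 lower, and without WT replicate 3 there were 12 and 0, without LC-/- replicate 1 there were 11 and 1.

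The 8 largest T cell side changes in each direction were taken from 76 genes that rose and 27 that fell with a mean normalized count of at least 50 and no overlap. Trav16 (log2 fold change 1.70) and Havcr2 (1.40) were among the rises. Between them came Slc32a1, a vesicular transporter of inhibitory neurotransmitters, at 36.0, 45.4 and 58.3 in WT and 142 and 126 in LC-/- libraries (log2 fold change 1.53, adjusted p = 0.0247, limma). Neto2, an accessory subunit of kainate receptors, was at 213, 260 and 279 against 698 and 607 (log2 fold change 1.38 ± 0.15 SE, adjusted p = 0.00985, limma). Zeb1, a zinc finger repressor active in T cells, was at 2330, 3210 and 3533 against 7972 and 6517 (log2 fold change 1.27, adjusted p = 0.0168, limma). Spsb1, an adaptor of ubiquitin ligases, rose by 1.26, the unnamed gene Gm46210 by 1.28, and Jmy by 1.17 in log2 units. Jmy, a regulator of actin and a cofactor of p53, was at 9575, 10271 and 10394 in WT and 24190 and 21304 in LC-/- libraries (SE 0.11, adjusted p = 0.00719, limma). Of the 67 genes taken by the naming rule 41 were called, and among these Jmy, Neto2, Havcr2, Foxo1 and Trav16 were the 5 that stayed called without each library in turn.

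Among the T cell side genes that fell, Kcnt2, a potassium channel, was at 130, 94.1 and 137 in WT and at 40.8 and 53.1 in LC-/- libraries (log2 fold change -1.33 ± 0.24 SE, adjusted p = 0.0318, limma). Nrp1, neuropilin 1, a co-receptor for semaphorins and VEGF, was at 167, 171 and 228 against 74.8 and 80.7 (log2 fold change -1.25 ± 0.19 SE, adjusted p = 0.0204, limma). Quantile normalization ended the calls of Otop1 (adjusted p = 0.0557) and Mmp25 (0.0598). Otop1, a proton channel, was at 158, 98.2 and 149 against 60.2 and 46.4, and Gm16702, an unnamed gene, at 121, 81.7 and 87.5 against 36.9 and 37.6. Coro2b, an actin-binding coronin, and Mmp25, a membrane-bound metalloproteinase, fell by 1.12 and 1.07 on the log2 scale. Ccr6 and Klrb1c completed the 8 largest decreases. Without WT replicate 3 or LC-/- replicate 1 none of these 8 was called (adjusted p 0.0592 to 0.176), nor was any but Klrb1c (0.0493) without WT replicate 2, and Otop1, Gm16702 and Mmp25 lost their calls without any 1 library. Slc32a1 and Gm46210 lost their calls without WT replicate 2 or 3 or LC-/- replicate 1, Zeb1 without WT replicate 2 (adjusted p = 0.0595) or LC-/- replicate 1 (0.0804), and Spsb1 without LC-/- replicate 1 (0.0560).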

How the data were processed

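Poly-A RNA libraries of sorted DETCs (KAPA mRNA Hyper Prep) were sequenced as paired ends on a NextSeq 500. The authors used cutadapt for trimming, hisat2 for alignment (GRCm38), featureCounts for gene counts and DESeq2 for scaling by median-of-ratios size factors over 11 libraries. The deposited values are therefore a signal, namely counts after this scaling. Dividing each by its library's smallest step gave whole reads for 100% of values (tolerance 0.01). Of 52550 deposited genes, 52403 matched GENCODE M21.

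Genes with a CPM above 1 in at least 2 of the 11 libraries (14419) entered limma 3.58.1 (R 4.3.3, eBayes with trend) on log2(normalized count + 1), with Benjamini-Hochberg adjustment and a threshold of 0.05. Fold changes are on that scale. DESeq2 1.42.0 and edgeR 4.0.16 (quasi-likelihood) on the recovered reads, other pseudocounts, filters, scalings and keratinocyte corrections, and leaving out each library were alternatives. The fits were also run on simulated counts, which held no difference in keratinocyte share between libraries. Replicates of a genotype differed beyond sampling noise (chi-square per degree of freedom 8.38 to 23.8), so none were counted as 1 sample. A floor of 3 reads corresponded to normalized counts of 2.476 to 3.317 and covers counting error only.

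The members, gene lists and tests were chosen with earlier results of these data known. The rule for named genes took the DETC receptor genes and Krt5 and Krt14, T cell genes that the study discusses, called members and the 2 members with the highest counts of each T cell list, and the 8 largest T cell side changes per direction. Marker genes of other cells and other list members were named after their values were seen. Some list members are not reported here and were left out of the lists and their counts, but not of the fits. Whether DETC and KC libraries with the same mouse number share an animal is not given, so none were paired.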

Additional observations from a re-analysis of the deposited data

How the results depend on the processing

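The counts of called DETC genes (452 higher, 62 lower) stayed within 1.5 times under both pseudocounts, all filters, size factors from the 5 DETC libraries, TMM and edgeR. Quantile normalization gave 178 higher and 85 lower, DESeq2 868 and 211, a fit over all 11 libraries 834 and 125, and the keratinocyte level as a covariate 147 and 30. limma without a trend in the variance and limma after subtracting the keratinocyte share over all genes each gave 0 and 0, with 1554 and 853, and 1167 and 1163, at an unadjusted p under 0.05. Scaling each library to its median T cell side gene, added after seeing the data, gave 310 and 41. Leaving out 1 library gave 29 to 478 higher and 0 to 112 lower. Of T cell side genes (77 higher, 28 lower) quantile normalization called 35 and 39, DESeq2 127 and 83, the covariate 27 and 16, the fit over all libraries 63 and 9, no trend and the subtraction 0 and 0, and leaving out 1 library 11 to 68 and 0 to 73.

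Of the 41 called genes among the 67 named, DESeq2 kept 41, edgeR 40, quantile normalization 28, the fit over all 11 libraries 21 and the covariate 20. Calls lost with the covariate included those of Trdv4, Nr4a3, Hif1a, Il17rb, Il4ra, Il12rb2, Klrb1c, Grap2, Rcan1 and Ptprcap. Tnfrsf1b, Areg, Tnfsf11, Tgfb3, Itga4, Itga2 and Ccr7 lost theirs too. The 20 lost over all 11 libraries (adjusted p 0.0511 to 0.464) were Klrb1c, Zeb1, Otop1, Gm46210, Gm16702, Havcr2, Itgb3, Il27ra, Mmp25, Tnfrsf1b, Il12rb2, Prf1, Coro2b, Nrp1, Tnfsf11, Grap2, Ptprcap, Ccr7, Il7r and Trdv4. Without each library in turn 5 stayed called throughout and 7 (Il17rb, Ccr6, Ccr7, Itgb3, Gm16702, Otop1 and Mmp25) never. The directions that turned were all of genes not called. Under quantile normalization the log2 fold changes were -0.19 (Krt5), -0.20 (Cd44), -0.01 (Klrk1), -0.08 (Srgn), -0.26 (Itgae) and -0.28 (Itgal). Under TMM they were -0.01 (Cd44), -0.01 (Itgae) and -0.04 (Itgal), with DESeq2 -0.0013 (Cd44) and -0.02 (Itgal), with edgeR -0.02 (Cd44), -0.01 (Itgae) and -0.03 (Itgal), and with DETC size factors -0.02 (Itgal). Subtracting the keratinocyte share gave -1.29 (Krt14) and -0.13 (Cd44), and the covariate -0.01 (Cd44). Leaving out 1 library gave -0.02 to 0.28 for Krt5, -0.09 to 0.68 for Krt14, -0.02 to 0.08 for Cd44, -0.09 to 0.16 for Itgae, -0.14 to 0.16 for Itgal, and for Ptprc 0.05 without LC-/- replicate 1. The cause of these changes was not tested. No paired analysis was possible because the WT and LC-/- libraries came from different mice. With 3 against 2 libraries, each from 1 animal, the spread between animals and that between libraries cannot be told apart. The limma p-values also draw on a variance trend shared by all tested genes, and without that trend no gene was called.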

Other observations

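Genes called higher in LC-/- DETCs had a median exon length of 5720 bases, against 4136 for all tested genes and 4046 for genes called lower, and 96.7%, 87.6% and 90.3% of them were protein coding.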
